A study of Mus musculus with 18 samples.

Results

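The circular RNAs described here come from 4 genes that encode RNA-binding proteins or regulators of translation: Hnrnpu, Gigyf2, Rbm33 and Atxn2. They were chosen by position, as the rows of the deposited table with both ends inside one of these genes. Hnrnpu, Gigyf2 and Rbm33 held 1 each and Atxn2 held 2. This made 5 circular RNAs of the 434 listed there, in 4 of 374 host genes.

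Liver RNA was sequenced from 18 male C57BL/6 mice in week 22, with 6 mice in each of 3 groups. Mice were 6 weeks old at the start, and 15 entered each group. Controls received double distilled water by gavage every day, with olive oil injected into the peritoneum. Mice of the CCl4 group were given the same water, and carbon tetrachloride (CCl4), a hepatotoxin that here served to bring about liver cancer, was injected into the peritoneum. The CCl4+PZH group received CCl4 in the same way and a daily gavage of PZH, the traditional Chinese medicine Pien Tze Huang, which the labels also write as PTH. The labels name whole liver and do not say whether tumour or surrounding tissue was taken, so the level of a circular RNA averages over all liver cells. A lower value in a bulk sample can come from fewer cells of a type or from less RNA in each cell, and these cannot be told apart.

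A circular RNA forms when the splicing machinery links the 3′ end of an exon to the 5′ end of that exon or of an earlier one, a reaction called back-splicing that competes with linear splicing of the same transcript. The closed loop has no free ends, which protects it from exonucleases. Some RNA-binding proteins are known to help or hinder back-splicing. The hosts described here encode RNA-binding proteins or regulators of translation, and whether these act on back-splicing was not tested. Hnrnpu encodes a nuclear scaffold protein, also called SAF-A, that binds RNA and DNA. Gigyf2 encodes a partner of the cap-binding protein 4EHP in repressing translation. Rbm33 encodes an RNA-binding protein that has been linked to the RNA demethylase ALKBH5. Atxn2 encodes ataxin-2, a binding partner of the poly(A)-binding protein that is found in stress granules and that carries the expanded repeat in one inherited ataxia. The values below count reads over the back-splice junction and say nothing of the level of the linear messenger RNA or of the protein.

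Levels are CPM, that is, back-splice reads relative to a total that the authors set for each library. Within a library all values proved to be multiples of what 1 read is worth, so reads could be recovered. Each circular RNA is counted at 1 junction, so its span does not enter its level. Libraries held 900 (control 3) to 2840 (control 4) recovered reads in the table, and summed CPM ran from 40.4 (control 3) to 550 (control 4). Values are therefore also given per 1000 reads of the table, which removes this scale. A count of 0 leaves room for as many as 3 reads, worth 0.135 CPM in control 3 but 0.918 CPM in control 2. Controls 2, 3 and 4 have sample records deposited later than those of the other 15 libraries. Of 14 hepatocyte marker genes, 2 hosted circular RNAs (Slco1b2 and Cyp1a2, 3 circular RNAs), and the marker lists of stellate and fibroblast, endothelial and cholangiocyte cells had 0. Most defining liver genes, such as Alb, therefore gave no circular RNA with which to check the tissue.

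The circular RNA of Hnrnpu lay at 178323134 to 178325313 of chromosome 1 (GRCm38) and spanned 2180 bp near the 3′ end of its gene, 13578 bp from the 5′ end. The gene runs from 178321108 to 178338891 on the minus strand. The circular RNA of Gigyf2, at 87364104 to 87380008 of chromosome 1, spanned 15905 bp, the longest of the 5. It began 37173 bp into a plus-strand gene of 123880 bp (87326931 to 87450810). That of Rbm33, at 28358274 to 28368313 of chromosome 5, spanned 10040 bp in the middle of a plus-strand gene of 102409 bp (28316836 to 28419244). These 3 spans each covered a similar share of their gene, 12.3% for Hnrnpu, 12.8% for Gigyf2 and 9.80% for Rbm33.

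Atxn2, on the plus strand of chromosome 5 from 121711609 to 121814950, held 2 circular RNAs whose spans do not overlap. The upstream one, at 121745723 to 121749229, spanned 3507 bp and began 34114 bp from the 5′ end of the gene. The downstream one, at 121802081 to 121803080, spanned 1000 bp and ended 11870 bp before the 3′ end. Together with Atxn2, 44 of the 374 hosts had more than 1 circular RNA in the table. The median span of the 434 was 4691 bp, so Gigyf2 and Rbm33 lay above it and Hnrnpu and both of Atxn2 below. No other annotated gene overlapped any of the 5 spans, and 0 annotated microRNAs lay within them. Exons and introns were not analysed here, and the table gives no strand.

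**Figure D1:**
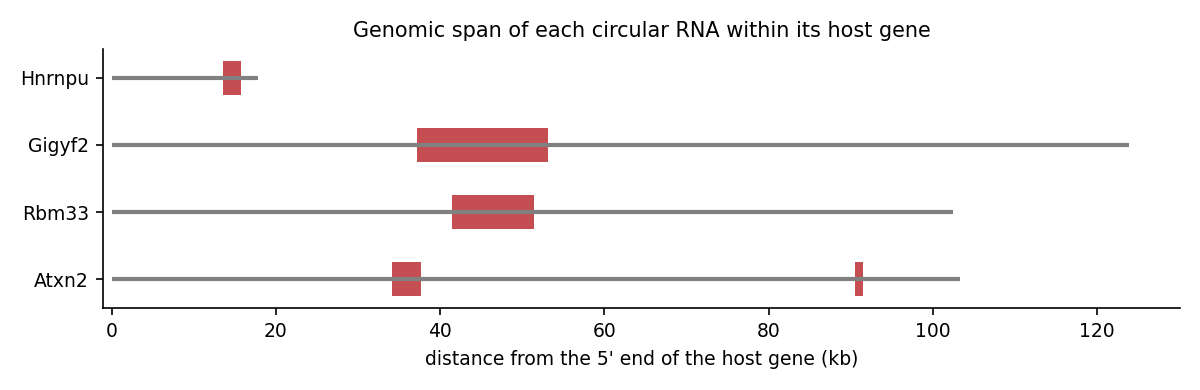
Genomic span of the 5 circular RNAs (red bars) within their 4 host genes (grey lines), drawn from the 5′ end of each gene in kb. Gigyf2 and Rbm33 carry long spans in the first part or the middle of the gene, and the Hnrnpu and downstream Atxn2 spans are short and near the 3′ end.

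Over all libraries the 5 circular RNAs were covered by 466 of the 25803 recovered reads, and 15 of their 90 values (16.7%) were listed at 0, against 31.4% of all values in the table. The downstream circular RNA of Atxn2 was the most abundant, with 132 reads and a mean of 1.01 CPM, and ranked 37 of 434 by mean CPM. Hnrnpu followed at rank 47 (115 reads, 0.935 CPM), Gigyf2 at rank 49 (107 reads, 0.907 CPM) and the upstream circular RNA of Atxn2 at rank 98 (78 reads, 0.562 CPM). Rbm33 was the least abundant at rank 307, with 34 reads and 0.227 CPM, below the table's median of 0.302 CPM. Rbm33 is therefore measured with the least precision, at 9 reads or fewer in every library.

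The order of the 5 differed by group. In controls Hnrnpu was highest (1.72 ± 1.65 CPM, SD, n = 6), followed by Gigyf2 (1.49 ± 1.52 CPM), downstream Atxn2 (1.39 ± 0.885 CPM), upstream Atxn2 (0.596 ± 0.343 CPM) and Rbm33 (0.240 ± 0.346 CPM). In CCl4 livers Gigyf2 (0.620 ± 0.366 CPM, SD, n = 6) and downstream Atxn2 (0.610 ± 0.558 CPM) led, and Hnrnpu came after both of Atxn2 (0.383 ± 0.631 CPM). In CCl4+PZH livers downstream Atxn2 led (1.02 ± 0.722 CPM, SD, n = 6) and Hnrnpu was second (0.706 ± 0.475 CPM). Neighbours in these orders differed by less than the larger of their SDs, other than upstream Atxn2 and Rbm33 in controls. Rbm33 was lowest in all 3 groups.

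**Figure D2:**
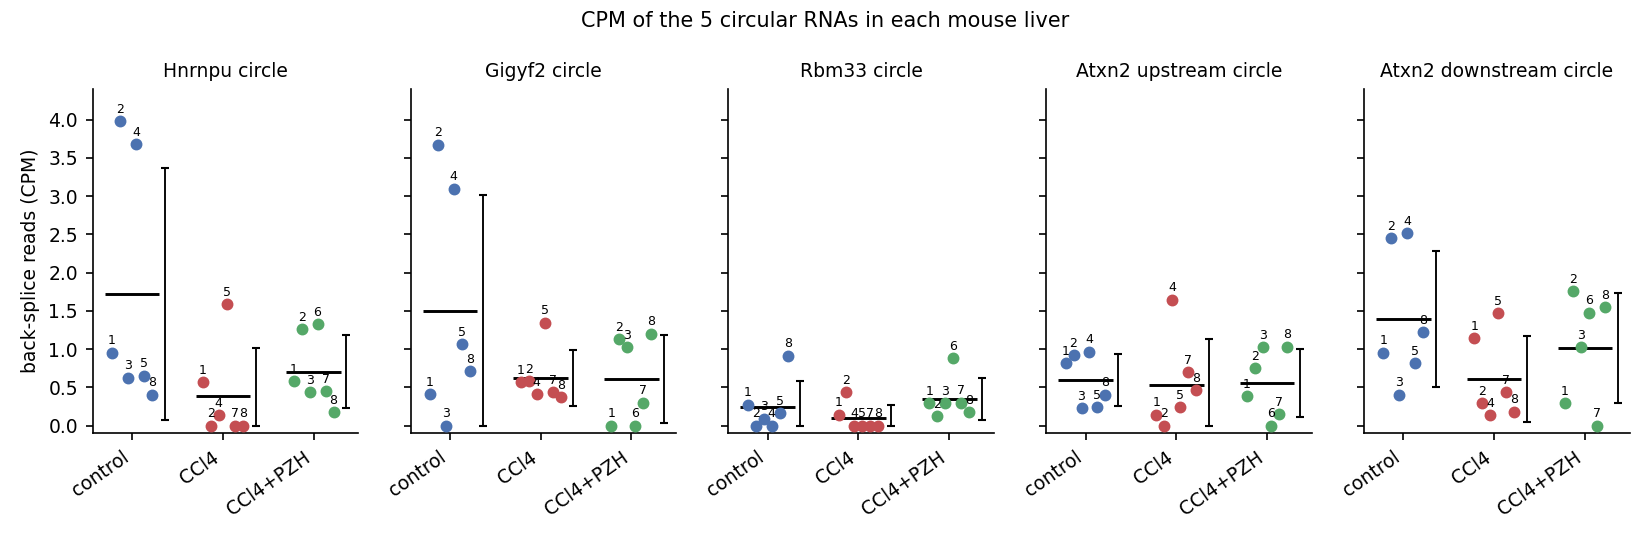
Back-splice reads in CPM for each of the 5 circular RNAs; points are single mice with their replicate numbers, horizontal lines are group means and vertical bars are 1 SD to each side, ended at 0 where the SD exceeds the mean (n = 6 per group). Among controls, replicates 2 and 4 stand highest for all but Rbm33, and CCl4 replicate 5 is the highest CCl4 library for Hnrnpu, Gigyf2 and downstream Atxn2.

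CCl4 livers were compared with controls to ask how circular RNAs of the liver cancer model depart from normal liver. No circular RNA of the 4 hosts passed the threshold, an adjusted p under 0.05 by limma over all 434. The largest difference was that of Hnrnpu, which was lower in CCl4. All 5 log2 values were negative, with a median of −0.55, while the median over all 434 was −0.28 and 62.9% of the 434 were negative (37.1% positive). Scaling to the table's own reads moved the median of all 434 to −0.03 and left Hnrnpu, Rbm33 and both of Atxn2 negative, with Gigyf2 positive.

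The circular RNA of Hnrnpu, the nuclear scaffold protein gene, ran from 0.407 CPM (control 8) to 3.98 CPM (control 2) in controls, with a median of 0.802 CPM. In CCl4 livers it ran from 0 to 1.59 CPM (replicate 5), with a median of 0.0686 CPM. It was above 0 in 6 of 6 controls and in 3 of 6 CCl4 livers, and replicates 2, 7 and 8 were listed at 0, which allows up to 0.438, 0.262 and 0.276 CPM. The groups overlapped, because CCl4 replicate 5 stood above 4 of the 6 controls and CCl4 replicate 1 above control 8. In reads, 65 were recovered in controls and 18 in CCl4 livers, 13 of the 18 in replicate 5. Per 1000 reads of the table the means were 7.64 ± 4.67 and 2.18 ± 3.59 (SD, n = 6 each).

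In the limma fit, SEs, intervals and p-values were set by a trend of spread with abundance over all 434. They leave out the spread of each circular RNA between its own mice. On the log2(CPM + pseudocount) scale, Hnrnpu differed by −2.11 (limma SE 0.73, 95% interval −3.55 to −0.68, adjusted p = 0.199). Set against the table's median, this was −1.83. It ranked 7 of 434 by p. At an unadjusted p under 0.05, 1 of the 5 stood, this one, where 8.29% of all 434 did; of the 434, 0.691% passed after adjustment. The value was −1.33 without controls 2 and 4 (limma adjusted p = 0.711), the libraries with the highest CPM per read, a choice made after seeing the data. With controls 1, 5 and 8 alone it was −1.33 (limma adjusted p = 0.658). On the scale of the table's own reads, with all libraries, it was −2.095 (limma adjusted p = 0.0598). Over all alternatives to this fit its adjusted p ran from 0.0589 to 0.711, and the value from −2.85 to −1.25.

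Circular RNAs of cell type markers were read in the same libraries. The 3 of the hepatocyte list, from 2 of its 14 genes, had negative log2 values, and their sum was 5.99 to 9.50 reads per 1000 of the table in controls and 0 to 4.73 in CCl4. The 4 of the macrophage list, from Adgre1 and Mertk, 2 of its 10 genes, had positive values, with sums of 0 to 5.30 in controls and 4.30 to 30.5 in CCl4. The 1 of the lymphocyte list, in Ikzf1, had 0 to 1.76 in controls and 0 to 8.10 in CCl4. None of these 8 passed by limma over all 434, and their part in the result for Hnrnpu was not tested.

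The downstream circular RNA of Atxn2, the ataxin-2 gene, had the second largest difference. In controls it ran from 0.404 CPM (control 3) to 2.52 CPM (control 4), with a median of 1.09 CPM, and in CCl4 livers from 0.137 CPM (replicate 4) to 1.47 CPM (replicate 5), with a median of 0.365 CPM. It was above 0 in all 12 livers and the groups overlapped. The log2 difference was −1.15 (limma SE 0.76, 95% interval −2.64 to 0.34, adjusted p = 0.702). Per 1000 reads of the table the level was 6.68 ± 1.89 in controls and 3.80 ± 2.91 in CCl4 (SD, n = 6 each). The upstream circular RNA of the same gene had a log2 difference of −0.45 (limma SE 0.72, 95% interval −1.85 to 0.96, adjusted p = 0.862). It ran from 0.224 to 0.968 CPM in controls and from 0 to 1.65 CPM (replicate 4) in CCl4, and on the recovered reads edgeR with TMM and DESeq2 gave it positive values, 0.28 and 0.16.

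Gigyf2, the gene of the 4EHP partner, ran from 0 (control 3) to 3.67 CPM (control 2) in controls, with a median of 0.886 CPM. In CCl4 livers it ran from 0.368 to 1.35 CPM (replicate 5), with a median of 0.505 CPM, and the other 5 livers lay at 0.584 CPM or below. The log2 difference was −0.49 (limma SE 0.74, 95% interval −1.94 to 0.95, adjusted p = 0.862). Without control 3, the value was −1.06, and by edgeR with the implied totals it was −1.19. With controls 1, 5 and 8 alone it was −0.22. It turned positive without controls 2 and 4 (0.42), a choice made after seeing the data, and on the scale of the table's own reads (0.088). Gigyf2 was the only one of the 5 above 0 in every CCl4 liver beside downstream Atxn2.

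Rbm33 was above 0 in 4 of 6 controls and in 2 of 6 CCl4 livers. Controls ran up to 0.915 CPM (control 8, 9 reads), with a median of 0.127 CPM, and CCl4 livers up to 0.438 CPM (replicate 2, 3 reads), with a median of 0. It was covered by 15 reads in controls and 4 in CCl4 livers. The log2 difference of −0.55 (limma SE 0.64, 95% interval −1.81 to 0.71, adjusted p = 0.861) was not detectable as a difference at this depth. Its size depended on the fit: it was −0.17 without control 8, −1.37 with controls 1, 5 and 8 alone, −1.54 by edgeR with TMM and −1.92 by DESeq2, with none past the threshold.

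Treated livers were compared with CCl4 livers to ask what PZH changes. None of the 5 passed by limma, and 0 of all 434 did (0%); at an unadjusted p under 0.05 the counts were 0 of the 5 and 24 of the 434 (5.53%). edgeR and DESeq2 on the recovered reads also called 0. Of the 5, 4 had positive log2 values, with a median of 0.50 beside 0.23 for all 434, of which 69.8% were positive and 30.2% negative. This comparison shares its CCl4 libraries with the one above.

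Hnrnpu and Rbm33 had the largest values. Hnrnpu was above 0 in 6 of 6 CCl4+PZH livers, at 0.172 CPM (replicate 8) to 1.33 CPM (replicate 6) with a median of 0.517 CPM, against 3 of 6 CCl4 livers. The ranges overlapped, since CCl4 replicate 5, at 1.59 CPM, lay above every treated liver. The log2 difference was 1.25 (limma SE 0.73, 95% interval −0.19 to 2.69, adjusted p = 0.804). The treated livers had 32 reads of Hnrnpu and the CCl4 livers 18. Circular RNAs of the hepatocyte list summed to 1.68 to 8.22 reads per 1000 in treated livers, those of the macrophage list to 5.50 to 12.8 and that of Ikzf1 to 1.45 to 6.42; their part in these values was not tested.

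Rbm33, the gene linked to ALKBH5, was also above 0 in 6 of 6 treated livers and in 2 of 6 CCl4 livers. Treated livers ran from 0.126 CPM (replicate 2) to 0.886 CPM (replicate 6), with a median of 0.293 CPM, on 1 to 6 reads each. Its log2 difference of 1.15 (limma SE 0.64, 95% interval −0.11 to 2.41, adjusted p = 0.804) ranked 35 of 434 by p. A value of 0 allows 3 reads, and 4 of the treated libraries had fewer than 3.

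The other 3 lay closer to 0. Downstream Atxn2 had log2 0.50 (95% interval −0.99 to 1.99, limma adjusted p = 0.960) and ranged from 0 (replicate 7) to 1.76 CPM (replicate 2) in treated livers. Upstream Atxn2 had log2 0.16 (95% interval −1.25 to 1.57, limma adjusted p = 0.992), which turned negative by edgeR with TMM, by DESeq2 and on the scale of the table's own reads. Gigyf2 was the only one with a negative value, −0.48 (95% interval −1.93 to 0.96, limma adjusted p = 0.960). It was listed at 0 in CCl4+PZH replicates 1 and 6, and the other 4 treated livers ran from 0.301 to 1.20 CPM. The intervals allow differences of more than 2 log2 units upwards for Hnrnpu and Rbm33, so a missing call does not show that these circular RNAs were alike in the groups.

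**Figure D3:**
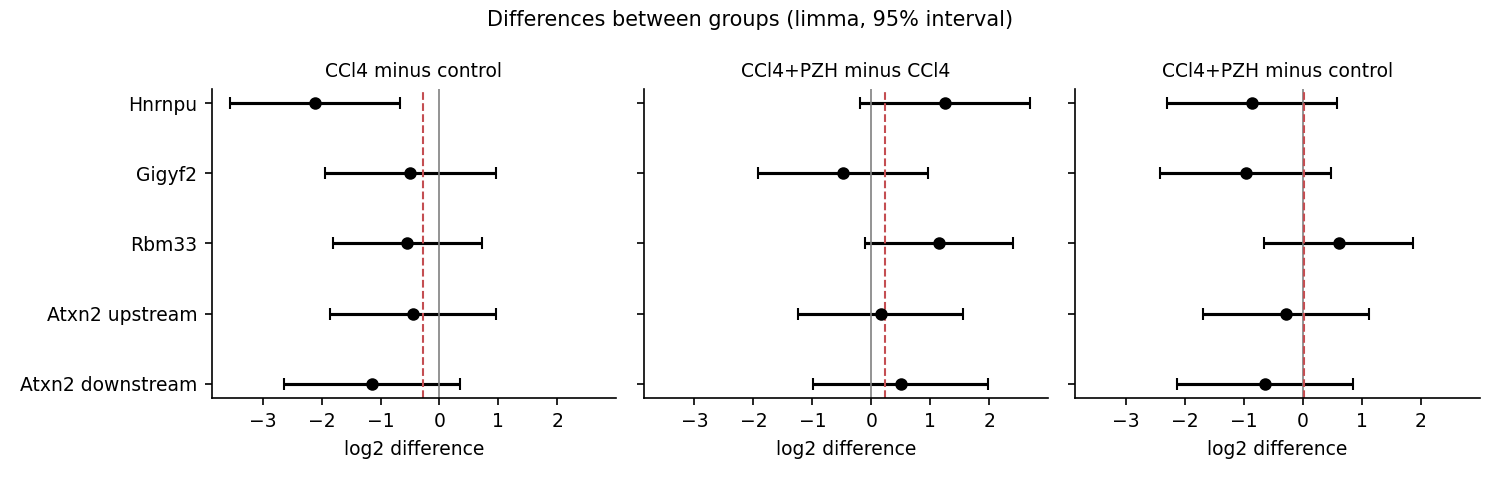
Log2 differences of the 5 circular RNAs in the 3 comparisons, on the log2(CPM + pseudocount) scale; points are limma estimates, bars are 95% intervals, grey lines mark 0 and dashed red lines the median of all 434. Widths of the intervals follow the trend of spread with abundance and leave out the spread of each circular RNA itself. Only the interval of Hnrnpu in CCl4 against control leaves out 0, and after adjustment it did not pass.

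Treated livers were compared with controls to ask what separates them from normal livers. None of the 5 passed by limma, where 1 of 434 did (0.230%). At an unadjusted p under 0.05 the counts were 0 of the 5 and 22 of the 434 (5.07%), and edgeR and DESeq2 on the recovered reads called none of the 5. Of the 5, 4 had negative values and 1 a positive one, where 47.7% of the 434 were negative and 52.3% positive. The median of the 5 was −0.65, beside 0.02 for all 434. The controls are those of the first comparison.

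Gigyf2 had the largest difference here, −0.97 (limma SE 0.74, 95% interval −2.42 to 0.47, adjusted p = 0.882), and Hnrnpu followed with −0.86 (95% interval −2.30 to 0.57, limma adjusted p = 0.882). Without controls 2 and 4, a choice made after seeing the data, these were −0.06 and −0.08 (limma adjusted p = 0.979 each). Downstream Atxn2 had −0.65 (95% interval −2.14 to 0.84, limma adjusted p = 0.898) and upstream Atxn2 −0.29 (95% interval −1.70 to 1.12, limma adjusted p = 0.978). Rbm33 alone was positive, at 0.60 (95% interval −0.66 to 1.87, limma adjusted p = 0.898), and turned to −0.22 with controls 1, 5 and 8 alone. With controls 1, 5 and 8 alone, Gigyf2 had −0.71 and Hnrnpu −0.08 (limma adjusted p = 0.972 and 0.9995), so the value of Gigyf2 also turned on control 3, where it is listed at 0; without control 3 alone it was −1.54 (limma adjusted p = 0.585). In 0 of the 5 did any pair of groups of 6 separate without overlap; over all 434 such separation was seen in 0.691% for CCl4 against control, 0.230% for CCl4+PZH against CCl4 and 0.461% for CCl4+PZH against control.

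As a share of the table's reads, the 5 together took 18.7 to 33.3 per 1000 in controls (median 23.0), 7.87 to 26.6 in CCl4 livers (median 13.1) and 5.48 to 21.4 in CCl4+PZH livers (median 16.3). Of the 6 CCl4 livers, 5 lay below every control, and replicate 5 lay among the controls at 26.6 (38 of 1431 reads, exact 95% binomial interval 18.9 to 36.3). Control 3 was highest at 33.3 (30 of 900 reads, interval 22.6 to 47.3), although its CPM values were low. CCl4+PZH replicate 7 was lowest at 5.48 (8 of 1460 reads, interval 2.37 to 10.8). By mean reads per 1000, Hnrnpu (7.64 in controls, 2.18 in CCl4) and downstream Atxn2 (6.68 and 3.80) had the largest absolute drops. Gigyf2 (5.12 and 4.11) and Rbm33 (1.68 and 0.567) were also lower, and in proportion Rbm33 fell more than downstream Atxn2. Upstream Atxn2 had a higher mean in CCl4 (3.10 and 3.95), through replicate 4 (12 reads, 10.8 per 1000). By limma on log2 values of this scale, upstream Atxn2 differed by −0.18. The sum is a description and was not tested, since the 5 were grouped with earlier results known. How often other sets of 5 from the table would lie so was not examined. The intervals cover counting error only, since PCR can copy 1 molecule into several reads.

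**Figure D4:**
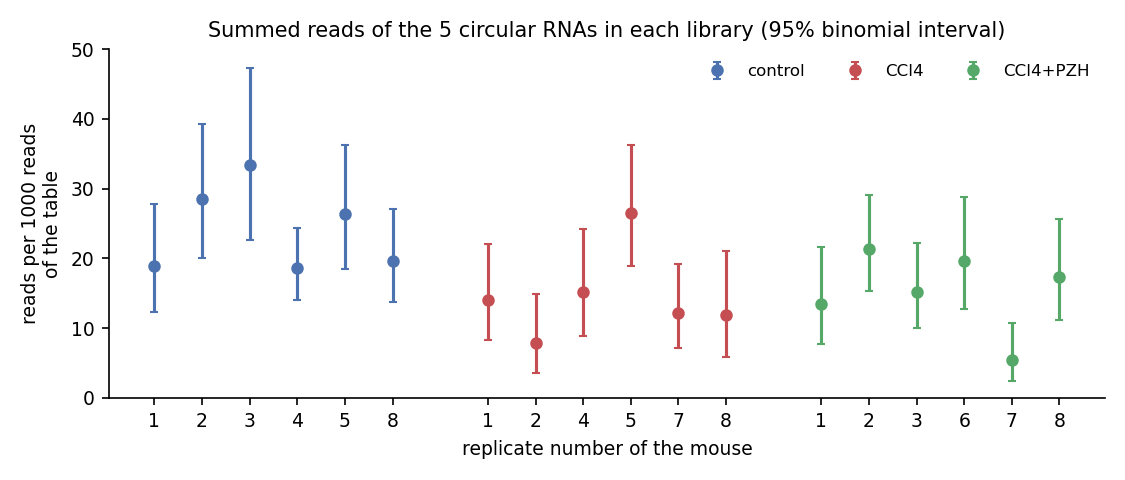
Summed recovered reads of the 5 circular RNAs per 1000 reads of the table, for each of the 18 libraries by group and replicate number; bars are exact 95% binomial intervals for counting error. Controls lie between 18.7 and 33.3, and 5 of 6 CCl4 livers lie below 18.7.

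The 2 circular RNAs of Atxn2 come from 1 gene and need not move together, so their reads were set side by side in each library. The downstream one had more reads in 12 of 18 livers, the upstream one in 5, and both had the same number in 1. In controls the downstream one was ahead in 6 of 6 livers, with 59 of 85 reads (69.4%). In CCl4 livers it was ahead in 3 and behind in 3, with 30 reads against 28. In CCl4+PZH livers it was ahead in 3, behind in 2 and equal in 1, with 43 reads against 24. CCl4 replicate 4 had 12 reads of the upstream and 1 of the downstream circular RNA, and CCl4+PZH replicate 7 had 1 and 0. Each library holds at most 20 reads of the pair, and the difference between groups in this balance was not tested.

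**Figure D5:**
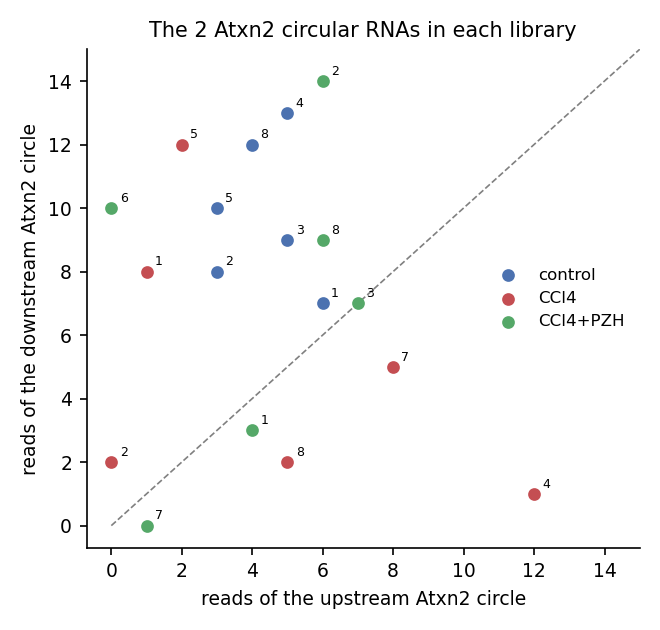
Recovered reads of the upstream (horizontal axis) and downstream (vertical axis) circular RNAs of Atxn2 in each of the 18 libraries, labelled by replicate number; the dashed line marks equal reads. All 6 controls lie above the line, and CCl4 replicates 4, 7 and 8 and CCl4+PZH replicates 1 and 7 lie below it.

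Spread between mice of a group was compared with counting error, as a ratio that is near 1 when counting alone sets the spread. Hnrnpu had a ratio of 4.47, which ranked 37 of 434. The other ratios were 2.77 for Rbm33, 2.65 for upstream Atxn2, 2.41 for Gigyf2 and 2.11 for downstream Atxn2, where the median of the table was 2.26. The ratio sets spread against counting error alone and grows with the number of reads, so it does not rank the 5 by how steady their levels were. As a percentage of the mean, the SD of CPM in controls was 144% for Rbm33, 102% for Gigyf2, 96.0% for Hnrnpu, 63.5% for downstream Atxn2 and 57.5% for upstream Atxn2. These percentages include the differences in CPM scale between the control libraries.

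Likeness of pattern was taken as Spearman's rho over the 18 libraries, on values as shares of the table's own sum, and is a description of these libraries, which share depth and group. Those named are the highest among all other circular RNAs in the table, and such a maximum is high even among unrelated rows. The number with a rho above 0.5 ran from 5 for Rbm33 to 14 for upstream Atxn2. Hnrnpu was most like a circular RNA of Gphn, the gephyrin gene (rho 0.739, Pearson r of log2 values 0.624), and then downstream Atxn2 (rho 0.721, r 0.554). Within groups of 6 the rho of Hnrnpu with downstream Atxn2 was 0.257 among controls, 0.577 among CCl4 livers and 0.486 among treated ones. Gigyf2 was most like circular RNAs of Elovl5, a fatty acid elongase gene (rho 0.762, r 0.683), and Plxnd1 (rho 0.755, r 0.751). Upstream Atxn2 was most like those of Tcf20 (rho 0.715, r 0.627) and Cdk8 (rho 0.682, r 0.601). Rbm33 was most like those of Kng2 (rho 0.599, r 0.539) and Rnf114 (rho 0.561, r 0.489). After Hnrnpu, downstream Atxn2 was most like a circular RNA of Fbrs (rho 0.656, r 0.490). The 2 circular RNAs of Atxn2 had a rho of −0.101 with each other on this scale and of 0.248 on CPM. Among pairs of the 5, Gigyf2 and Rbm33 had the most negative rho on shares of the table's sum, −0.541.

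Other RNA-binding and translation genes were read from a partial list of 305, which leaves out hosts such as Rbpms and Ddx52. Of the 305, 25 hosted 29 circular RNAs in the table, the 5 included. Of the other 24, 1 passed in CCl4 against control, where 3 of all 434 did (0.691%). It was that of the zinc finger protein gene Zc3h7a (chromosome 16, 11144001 to 11144173), which rose by log2 2.80 (limma SE 0.74, adjusted p = 0.0316). This SE too is set by the trend with abundance, so the call leaves out the spread of Zc3h7a between mice. Zc3h7a was at 2.25 ± 1.64 CPM in CCl4 livers and 0.459 ± 1.12 CPM in controls (SD, n = 6 each) and above 0 in 10 of 18 libraries. The log2 value was 3.53 without control 2, a library deposited later, and 2.65 without control 1, 3, 4, 5 or 8. Control 2 was the only control above 0, and the others were listed at 0. Of the 10 libraries with Zc3h7a above 0, all but control 2 were therefore CCl4 or CCl4+PZH livers. The table's minimum is 9 libraries, which can favour rows that are high outside the controls. Its effect on the call was not tested, and the filter at 12 or more libraries leaves Zc3h7a out. The call was kept in 10 of 23 alternatives and lost in 13, among them edgeR with the implied totals, DESeq2 and the fits without control 1, 4, 5 or 8 or without CCl4 replicate 1, 2, 7 or 8 (adjusted p from 9.391e-05 to 0.691 over all 23). The alternatives that lost the call include the exact permutation test, which could hardly keep any call with 6 mice in a group. The other 24 had 11 positive and 13 negative values and a median of −0.04, where 37.1% of all 434 were positive and their median was −0.28. Next by p were a circular RNA of Rbm4, a splicing factor gene, at −1.31 (limma adjusted p = 0.535), and a circular RNA of Cnot6l, which encodes a deadenylase of the CCR4-NOT complex, at −1.33 (limma adjusted p = 0.551). Each gene held another circular RNA with a positive value, 0.205 for Rbm4 and 0.098 for Cnot6l.

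In CCl4+PZH against CCl4, 0 of the 24 passed, 18 were positive (69.8% of all 434 were), and the median was 0.31 beside 0.23 for all 434. Smallest p-values belonged to the mRNA decapping enzyme gene Dcp2 (−1.28), Rbm4 (1.23) and the initiation factor gene Eif2b1 (1.11), each with a limma adjusted p of 0.804. The other circular RNA of Rbm4 had −0.062. In CCl4+PZH against control, 0 of the 24 passed and 18 were positive (52.3% of all 434 were), with a median of 0.39 beside 0.02. Zc3h7a had 2.05 (limma adjusted p = 0.474), the nuclear export factor gene Xpo1 0.78 and Rbms1 0.78 (limma adjusted p = 0.763 each). Whether the 5 differ from the other 24 was not tested.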

How the data were processed

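The authors deposited 1 table of CPM values (back-splice counts scaled to a library total) for 434 circular RNAs in 18 mouse livers, 1 mouse per column. Build GRCm38 and the tools Bowtie2 2.5.1, HISAT2 2.2.1, StringTie 2.1.5, cutadapt 4.2 and FastQC 0.11.9 come from the submitters' processing notes; the program that called circular RNAs, the denominator of the CPM and the table's filter were not given in the sources used here. No row had fewer than 9 of 18 libraries above 0. Divided by the step of its library, each of the 7812 values (100%) came within 0.1 of a whole read, and the steps differ between libraries. The 45 pairs of libraries of a group all differed by more than sampling noise.

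The host was the shortest protein-coding gene of RefSeq GRCm38.p6 that holds both ends or, where there was none, the shortest non-coding gene or pseudogene (429 of 434 had a host). limma 3.58.1 (R 4.3.3) was fitted to log2(CPM + 0.137) for all 18 libraries and 3 group means with an intensity trend, two-sided, with Benjamini-Hochberg adjustment over 434 and a threshold of 0.05; this scale understates changes of low values. In this limma fit the trend alone set the variance, so the spread of a single circular RNA between mice does not enter its SE, interval or p-value. edgeR 4.0.16 and DESeq2 1.42.0 on recovered reads were alternatives (on the reads, edgeR with TMM called 5, 0 and 2 of the 434 in the 3 comparisons in the order of the report). Summaries were made in Python 3.11.15 (matplotlib 3.10.9, scipy 1.17.1, pandas 2.3.3, numpy 2.4.6). The tests were tried on simulated data with the same spread setting for every row and no filter on libraries. That trial does not show how the tests perform on these data.

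The members, gene lists and tests were chosen with earlier results of these data known. All 5 circular RNAs are named; likeness names the 2 of highest rho for each; of other listed genes, called ones or at most 3 of smallest p per comparison are named.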

Additional observations from a re-analysis of the deposited data

Results flagged for a closer look

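Within each group of 6, Dixon's criterion at 95% picked out mice that stand far from the rest. It did so in 5 of 15 groups of values, and about 0.75 would arise by chance if values were normally distributed, which they are not here because many are 0. CCl4 replicate 5 stood at 1.59 CPM for Hnrnpu, the next at 0.572 CPM, and at 1.345 CPM for Gigyf2, the next at 0.584 CPM. For Rbm33, control 8 stood at 0.915 CPM (next 0.272), CCl4 replicate 2 at 0.438 CPM (next 0.143) and CCl4+PZH replicate 6 at 0.886 CPM (next 0.301).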

How the results depend on the processing

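No alternative placed any of the 5 circular RNAs past the threshold: over 350 values under 22 to 24 alternatives per comparison, the smallest adjusted p was 0.0589 (Hnrnpu, CCl4 against control, limma without CCl4 replicate 5). Of 15 differences, 9 kept their sign under every alternative. Gigyf2 in CCl4 against control turned to 0.088 (table scaling) and 0.42 (without controls 2 and 4, an alternative chosen after seeing the data), and in CCl4+PZH against CCl4 to 0.41 with the replicate block. Upstream Atxn2 turned to 0.28 (edgeR with TMM) and 0.16 (DESeq2) in the first comparison. In the second it turned to −0.35, −0.37 and −0.22 (table scaling), and with 1 library left out ran from −0.21 to 0.56. In the third it turned to 0.33 with the replicate block and 0.066 without controls 2 and 4, and ran from −0.51 to 0.11 with 1 library left out. Rbm33 turned to −0.22 without controls 2, 3 and 4. The cause of these reversals was not tested.

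Over all 434, the 3 calls of CCl4 against control became 1 with a pseudocount of 0.5 CPM, 1 with values above 0 in 12 or more libraries, 1 by edgeR with the implied totals, 1 with the replicate block, 5 by edgeR with TMM, 5 with table scaling and 0 by the exact permutation test, and 1 to 6 with 1 library left out (6 without control 3; 1 without control 1, 4 or 8 or CCl4 replicate 1, 2, 7 or 8). The 1 call of CCl4+PZH against control became 0 with the filter, 0 by the exact permutation test, 2 by either edgeR fit, 2 without controls 2 and 4, and 1 to 3 with 1 library left out (3 without control 2). The 0 of the exact permutation test says little in either comparison. With 6 against 6 mice its smallest p passes adjustment over 434 only if many rows reach it. Replicate numbers name mice and did not pair them: correlations of same-numbered libraries ran from −0.154 to 0.0794 on CPM and reached 0.0899 with table scaling. The block left the counts of the other 2 comparisons at 0 and 1 and called 0 of the 5. Depth limits Rbm33 most, at 34 reads in all.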
